A study of Drosophila melanogaster with 3 samples.

Results

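Transfer RNA (tRNA) genes are the short genes whose transcripts carry amino acids to the ribosome. The members are the 290 genes that Ensembl release 115 types as tRNA on the chromosome arms of Drosophila melanogaster, out of 23973 annotated genes there. They were read against anti-GFP chromatin immunoprecipitation sequencing of whole embryos aged 0 to 24 h and of both sexes, pooled. The embryos came from 1 transgenic line that stably carries Labial with GFP at its C terminus. There was 1 group, with 3 biological replicates. Embryos that lack the fusion were not analysed here. Because whole embryos were used, the cells that gave each peak are unknown. An irreproducible discovery rate (IDR) threshold on the pooled reads had left 10160 peaks in the dm6 build, and a tRNA gene was counted when the summit of such a peak lay within 250 bp of it. By this rule 36 tRNA genes (12.4%) had a summit, through 27 distinct summits. In windows of the same length at every position of the arms the share was 4.15%. The deposited peak signal served only to rank summits within a list, and the read depth is unknown.

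In flies, as in other eukaryotes, RNA polymerase III transcribes tRNA genes from a promoter that lies inside the gene. Its blocks, the A box and the B box, are bound by the factor TFIIIC, which places TFIIIB just upstream of the start. Transcription ends in a run of T just past the gene. Identical copies of one tRNA gene are often spread over several chromosomes and occur singly or in clusters. Labial is a homeodomain protein of the Antennapedia complex that acts in the embryonic head and midgut, and it binds DNA together with its cofactor Extradenticle.

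The genes beside 5 of the summits are shown first, since they carry the internal promoter blocks against which the summits are placed. They are written 5′ to 3′ on the gene's own strand, from the RefSeq Release 6 genome (dm6). Capitals mark the A box core TNGCNNAG and the B box core GTTCNANNC. Tyr-GTA-1-8 (FBgn0012024, minus strand, chr3R:8669081-8669174) lies beside the strongest of the 27 summits and within introns of CG8036 and p. Leu-TAA-2-1 (FBgn0053536, plus strand, chr3R:24112964-24113047) is intergenic, and Leu-TAA-4-1 (FBgn0051130, plus strand, chr3R:24265259-24265342) lies in an intron of jar. The last was picked for display after its values were seen. Ser-AGA-2-4 (FBgn0011984, minus strand, chr2L:3173003-3173084) is intergenic and holds a summit inside the gene. Cys-GCA-1-2 (FBgn0052289, plus strand, chr3L:3095991-3096062) has an identical copy, Cys-GCA-1-3, beside the same summit in an intron of Cht7.
tRNA:Tyr-GTA-1-8: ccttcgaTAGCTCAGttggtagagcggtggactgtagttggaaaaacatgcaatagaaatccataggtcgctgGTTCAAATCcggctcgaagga
tRNA:Leu-TAA-2-1: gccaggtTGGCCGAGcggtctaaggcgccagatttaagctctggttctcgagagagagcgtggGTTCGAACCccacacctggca
tRNA:Leu-TAA-4-1: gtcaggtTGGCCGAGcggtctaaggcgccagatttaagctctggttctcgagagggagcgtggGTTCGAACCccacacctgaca
tRNA:Ser-AGA-2-4: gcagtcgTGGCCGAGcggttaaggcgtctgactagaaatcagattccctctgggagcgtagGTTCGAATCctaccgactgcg
tRNA:Cys-GCA-1-2: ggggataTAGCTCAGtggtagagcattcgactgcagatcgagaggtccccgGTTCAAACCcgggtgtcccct
Both box cores are present in all 5 genes, the B box in the wider form GTTCNANNC. The narrower form GTTCGANNC is absent from Tyr-GTA-1-8 and Cys-GCA-1-2. The 5 do not stand for all genes with a summit, of which 26 of 36 held the A box core and 31 of 36 this B box core. The Leu-TAA genes are 84 bp long and differ at 3 positions, counted from the first base, with the base of Leu-TAA-2-1 first: C2T, A55G and G82A. None of these lies in a box core.

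The 101 bases centred on 3 of these summits show what lies under the peak itself. They are on the plus strand, with bases of a tRNA gene in capitals. The windows are chr3R:8669331-8669431 for Tyr-GTA-1-8, chr3R:24112707-24112807 for Leu-TAA-2-1 and chr2L:3172981-3173081 for Ser-AGA-2-4.
Summit beside Tyr-GTA-1-8: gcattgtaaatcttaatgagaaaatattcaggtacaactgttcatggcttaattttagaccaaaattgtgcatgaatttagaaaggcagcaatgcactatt
Summit beside Leu-TAA-2-1: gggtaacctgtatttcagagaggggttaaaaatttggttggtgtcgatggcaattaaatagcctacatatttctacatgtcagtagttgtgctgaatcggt
Summit inside Ser-AGA-2-4: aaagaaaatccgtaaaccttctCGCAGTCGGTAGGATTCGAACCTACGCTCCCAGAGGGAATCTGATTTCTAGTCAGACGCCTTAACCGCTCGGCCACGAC
The first pair of windows holds no tRNA base, because each summit lies 207 bp upstream of its gene. The third window is mostly the gene itself, read on the opposite strand.

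How often tRNA genes had a summit was compared first with placement. For each gene, the exact share of start positions on its own arm from which a gene of that length would have had an IDR summit within 250 bp was computed, with no random draws. The 36 genes compare with 12.03 from placement, a ratio of 2.99. In the replicates' own lists, each cut at its 10160 strongest peaks, 27, 36 and 38 genes had a summit in replicates 1, 2 and 3. Those are 9.31%, 12.4% and 13.1% of the genes, a mean of 11.6% ± 2.02 (SD, n = 3). The ratio to placement was 2.23, 2.99 and 3.12, a mean of 2.78 ± 0.484 (SD, n = 3), so all 3 replicates lay above 1. That SD shows only how alike the 3 lists are on the same genes, and no test of the excess was made. Replicate 1 was the lowest. Against positions 10 to 50 kb from each gene, where 5.63% had a summit, the ratio was 2.20. Requiring a summit in both replicates 1 and 2, without replicate 3, left 18 genes and a ratio of 1.99.

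Neighbouring tRNA genes can share a summit, so summits were also counted. Of the 27, 20 lay near 1 tRNA gene, 5 near 2 and 2 near 3. Placement gave 10.8 distinct summits, a ratio of 2.51. The replicates had 22, 28 and 30, with ratios of 2.03, 2.59 and 2.76. Requiring a match in both replicates 1 and 2, without replicate 3, left 17. The 27 summits were 0.266% of the IDR list.

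The ratio depended on the distance allowed. Within 50 bp there were 6 genes, 1.56 times placement, and within 100 bp there were 9, 1.51 times placement. The replicates gave 1.29, 1.55 and 1.03 within 50 bp and 1.17, 1.68 and 1.33 within 100 bp, so replicate 3 had almost no excess within 50 bp. Within 500 bp there were 55 genes, 2.56 times placement, and within 1000 bp there were 80, 2.15 times placement. It was lower further out, with 166 genes and a ratio of 1.49 within 5000 bp. The median tRNA gene lay 3487 bp from its nearest IDR summit. At the edge of the rule, iMet-CAT-1-1 at 245 bp and Phe-GAA-1-3 at 247 bp were inside it. Ile-AAT-1-8 at 254 bp and Trp-CCA-2-2 at 259 bp were outside it.

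**Figure D1:**
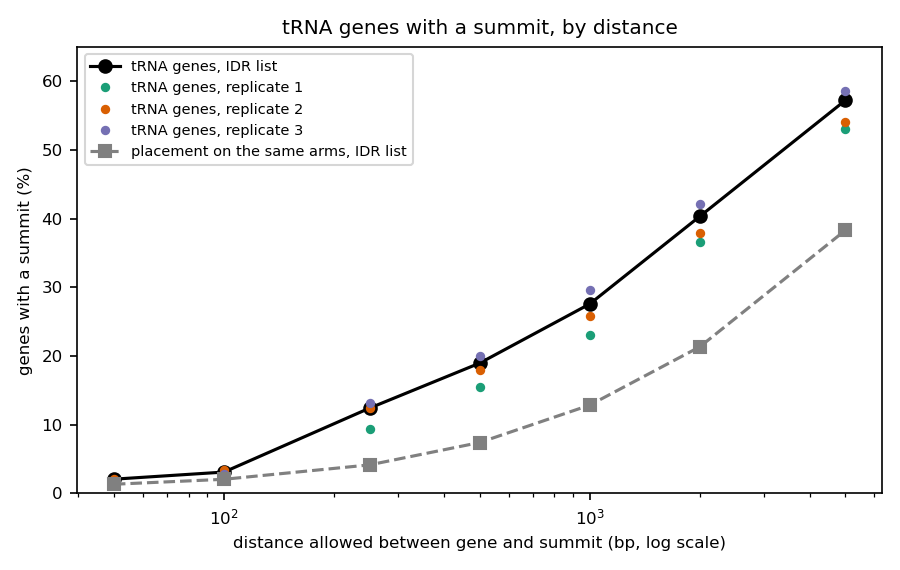
Share of the 290 tRNA genes with a summit (%, y axis) against the distance allowed (bp, log scale), for the IDR list (black line) and the 3 replicates' own lists (points), with placement on the same arms for the IDR list (grey, dashed). The tRNA genes lie above placement at each distance, at 12.4% against 4.15% within 250 bp.

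Where the summits lay relative to the gene was then examined. Distinct summits were assigned to the nearest tRNA gene and read along its strand. In the IDR list 19 lay upstream, 3 inside and 5 downstream. The replicates gave 14, 3 and 5 in replicate 1, 18, 3 and 7 in replicate 2, and 19, 3 and 8 in replicate 3. Upstream summits were thus the more frequent in each replicate. From 101 to 250 bp upstream the density was 430 to 493 IDR summits per Mb over the 3 bins of 50 bp. The average over the arms was 75.9. These bins hold 5 summits each. Inside the gene, 3 IDR summits gave 136 per Mb, and each replicate also had 3. No IDR summit and no replicate summit fell 1 to 50 bp downstream. From 201 to 250 bp downstream, however, 3 IDR summits gave 302 per Mb, and the replicates gave 201, 402 and 503 per Mb. The upstream summits beside Tyr-GTA-1-8, Leu-TAA-2-1, His-GTG-1-3 and Thr-AGT-1-4 also had a protein-coding start site within 500 bp.

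The whole pooled list, with 30000 peaks and background, showed another profile. It held 25 summits inside tRNA genes, 1135 per Mb, against 224 per Mb over the arms, and the gene was the densest bin. From 201 to 250 bp upstream it held 10 summits, 987 per Mb. In that list 99 tRNA genes (34.1%) had a summit within 250 bp, 2.93 times placement of that list. The IDR list is exactly the 10160 strongest of these peaks, so 22 of the 25 summits inside genes ranked below it.

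**Figure D2:**
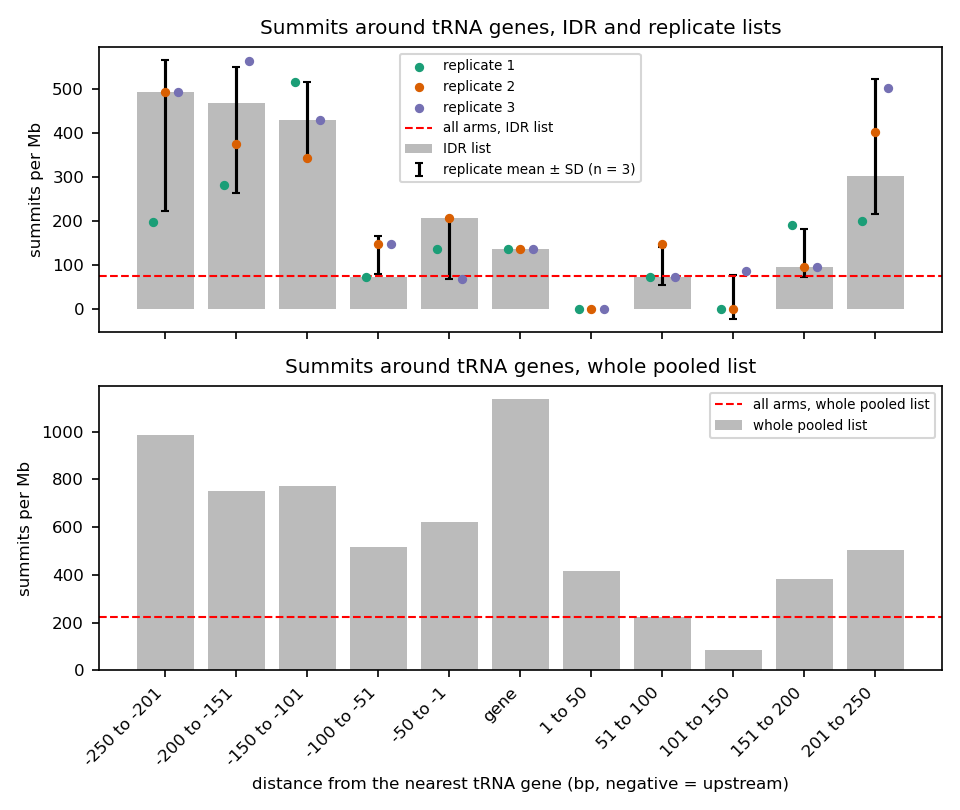
Summits per Mb (y axis) in bins of distance from the nearest tRNA gene (bp, negative upstream). Above, grey bars are the IDR list, points the 3 replicates and error bars their mean ± SD; below, bars are the whole pooled list, and red lines mark each list's average over the arms. IDR summits are densest 101 to 250 bp upstream, and summits of the pooled list are densest inside the gene.

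The summits near tRNA genes had a lower median rank than the IDR list as a whole. Their median signal was 296.6 and their median rank 6340, and the median rank of all IDR summits is 5080.5. Of the 27, 3 were among the strongest 1000. Near tRNA genes 6 of 27 summits (22.2%) had a protein-coding start site at most 500 bp away, against 3581 of all 10160 IDR summits. Those 6 had a median rank of 962.5 and the other 21 a median rank of 7077. In 3 cases the summit was nearer to the start site than to the tRNA gene.

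The strongest was the summit of rank 76 beside Tyr-GTA-1-8, whose signal was 3488.5. Its rank was 78 in replicate 1, 71 in replicate 2 and 80 in replicate 3, and it lay 237 bp from a start site of CG8036. Next came Phe-GAA-1-2, whose summit of rank 617 ranked 514, 752 and 677 in the replicates. That summit lay 68 bp from the start of RpL17, a ribosomal protein gene, and 165 bp downstream of the tRNA gene. The summit upstream of Leu-TAA-2-1 had rank 743 and ranked 751, 787 and 750. It lay 368 bp from a start site of CG13605. His-GTG-1-3 followed at rank 1182, with its summit 80 bp from the start of CG8490. The 4 strongest summits thus each had a protein-coding start site within 500 bp. Asp-GTC-1-5 had rank 3259, 73 bp from a start site of Sema1a, which encodes a semaphorin. Thr-AGT-1-4 had rank 8453, 358 bp from that of CG31279, and no match in replicate 2.

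Away from start sites the strongest summit belonged to Arg-CCT-1-2 on 2R, at rank 1279. It lay 184 bp upstream of the gene and ranked 1854, 1474 and 997 in the replicates. Thr-AGT-1-2, which overlaps an exon of CG12831, followed at rank 2368, and its summit ranked 2499, 3468 and 1620. The summit beside Glu-TTC-1-5 had rank 2928, with snoRNA:185 also within 250 bp. A single summit of rank 3225 lay between Phe-GAA-1-4 and Phe-GAA-1-5, 85 and 79 bp upstream of these divergent genes. It ranked 2734, 3236 and 4110. The summit inside Ser-AGA-2-4 had rank 3711 and ranked 3361, 5154 and 3825. The pair Cys-GCA-1-2 and Cys-GCA-1-3 shared a summit of rank 4158. Leu-CAA-2-1 and Ile-AAT-1-4, in an intron of ATP8A, shared one of rank 5398. Leu-CAA-2-3 and Gln-TTG-2-1 had ranks 5631 and 6340. All of these were matched within 100 bp among the strongest peaks of all 3 replicates.

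Several of the weaker summits ranked outside the strongest 10160 in at least 1 replicate. The one beside Val-CAC-1-1, of rank 7823, ranked 19718, 7379 and 6315 in replicates 1, 2 and 3. That beside Ala-AGC-2-8, of rank 9043, ranked 9301, 15300 and 7279. Lys-TTT-1-1, at rank 7498, was steadier, at 7951, 7948 and 8293. Arg-TCT-1-1 and Met-CAT-1-1 shared a summit of rank 9087. The weakest of the 27, at rank 10115, lay near Ala-AGC-2-2, Pro-TGG-1-2 and Ala-AGC-2-3. Its replicate ranks were 17512, 11877 and 10799, all outside the strongest 10160. In all, 16 of 27 summits were matched within 100 bp in all 3 replicates' strongest peaks, 9 in 2, 1 in 1 and 1 in none. In the whole replicate lists 25 were matched in all 3 and 2 in 2. The IDR list came from the pooled reads of these same replicates, so such matches are partly built in. The share of all IDR summits matched in this way is not given here, so these counts cannot be called high or low.

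**Figure D3:**
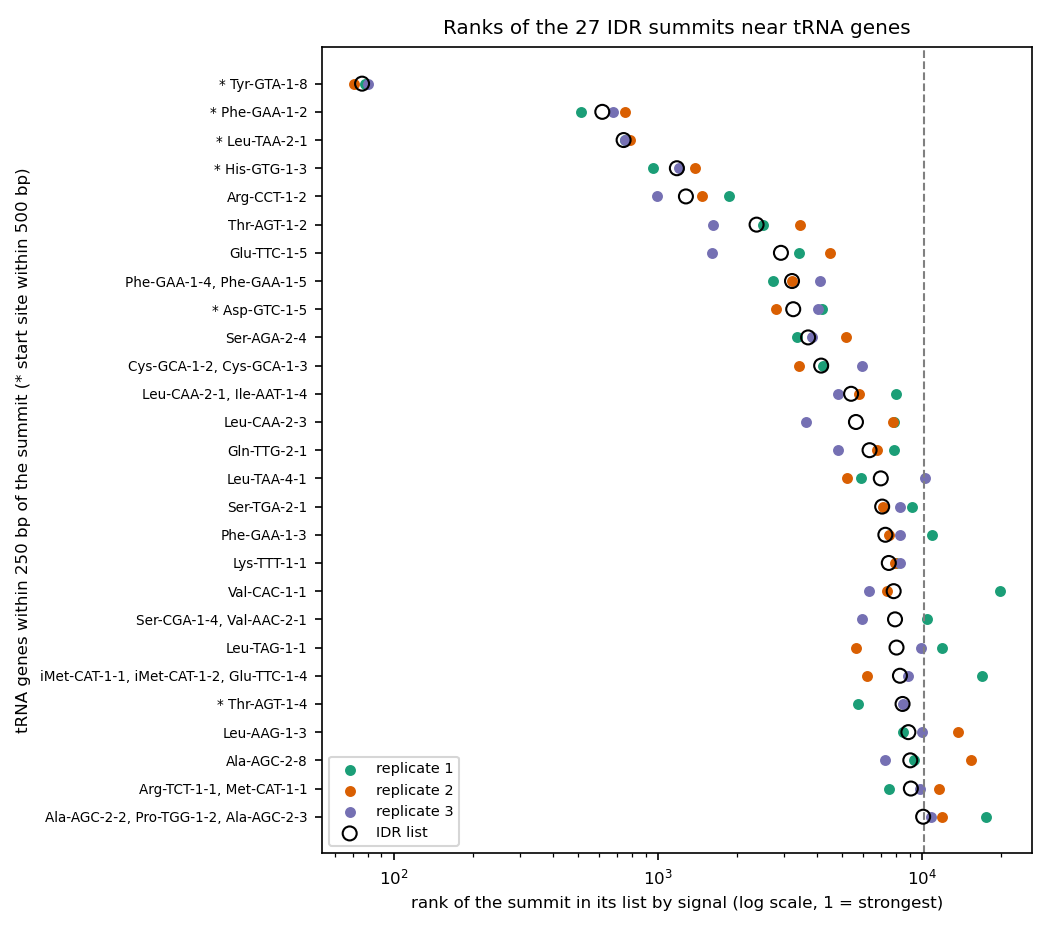
Rank by signal (log scale, 1 is the strongest) of the 27 IDR summits within 250 bp of a tRNA gene, in the IDR list (open circles) and at the matching summit of each replicate (points). The dashed line is rank 10160, and a star marks a start site within 500 bp of the summit. Points right of the line belong to weaker summits, such as the one of rank 10115.

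Genes near a protein-coding start site were compared with the rest. A summit was present at 6 of 33 tRNA genes (18.2%) with a start site within 500 bp, against 30 of 257 (11.7%) without one. The replicate differences were 13.4, 20.2 and 12.6 percentage points, a mean of 15.4 ± 4.17 (SD, n = 3). The direction was the same in 3 of 3 replicates, and the exact two-sided sign-flip permutation test gave p = 0.25, the smallest that 3 replicates allow. With summits within 100 bp the difference turned to −3.50 points. Each set was then read against positions of its own kind. Away from start sites the 11.7% of genes was 3.88 times the 3.01% of such positions, and the replicates averaged 3.31 ± 0.606 (SD, n = 3). Near start sites the 18.2% was 1.48 times the 12.3% of positions near a start site, and the replicates averaged 2.00 ± 0.478 (SD, n = 3).

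Start sites of protein-coding genes themselves were used as a reference, in a window of the same length. A summit was present at 36 tRNA genes (12.4%), against 2623 of 13945 start sites (18.8%). The replicate differences were −11.8, −5.71 and −6.65 points, a mean of −8.07 ± 3.31 (SD, n = 3; exact two-sided sign-flip permutation p = 0.25). The tRNA share was thus lower in 3 of 3 replicates. In the whole pooled list the difference was +4.37 points, the opposite direction.

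A tRNA gene was called clustered when another lay within 1000 bp. A summit was present at 26 of 185 clustered genes (14.1%), against 10 of 105 isolated genes (9.52%). In replicates 1, 2 and 3 the differences were 1.16, 6.02 and 2.63 points, a mean of 3.27 ± 2.50 (SD, n = 3; exact two-sided sign-flip permutation p = 0.25). By locus, 17 of 69 clusters (24.6%) had a summit, against 10 isolated genes. A cluster spans more bases than 1 gene, so its share and that of isolated genes are not over windows of equal length.

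Clusters of like size differed. On 2R a cluster of 7 Ile and Leu genes that starts with Ile-AAT-1-3 had 2 genes with a summit, and 2, 3 and 4 in the replicates. The cluster of 7 Arg and Ser genes on X that starts with Arg-TCG-2-1 had none in the IDR list or in any replicate. The cluster of 6 Cys and Lys genes on 3L that starts with Cys-GCA-1-1 had 2, and 2 in each replicate. On 3R, 6 Asn and Arg genes starting with Asn-GTT-1-10 had none. All 3 genes had a summit in the clusters that start with Ala-AGC-2-2 and iMet-CAT-1-1, in each case through 1 summit. In the replicates these clusters were less steady, with 0, 0 and 0 genes for Ala-AGC-2-2 and 0, 3 and 2 for iMet-CAT-1-1.

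By arm, 17 of 98 genes on 2R had a summit (17.3%, against 3.91% by placement there) and 11 of 79 on 3R (13.9% against 4.12%). On 2L it was 4 of 41 (9.76% against 4.53%) and on X 2 of 24 (8.33% against 4.23%). On 3L, 2 of 48 genes (4.17%) had a summit, both through 1 shared summit, against 4.32% by placement. That arm thus showed no excess in the IDR list. The replicates had 2, 4 and 3 genes there, a mean of 6.25% ± 2.08 (SD, n = 3). By position, 23 of 156 intergenic genes (14.7%), 12 of 127 intronic genes (9.45%) and 1 of 7 genes in an exon had one. No test was made of these counts, since neighbouring genes share summits.

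Isotypes hold few genes each, so they are given as counts, beside the 12.4% of all 290 genes with a summit. Of 22 isotype labels, 18 had a gene with a summit. Leu had the most, 6 of 22 genes, with 5, 7 and 5 in the replicates. Phe had 4 of 8, with 3, 4 and 4 in the replicates, 2 of them through a shared summit. The summits beside Leu-TAA-2-1 and Phe-GAA-1-2 are among those near a protein-coding start site. That beside Leu-AAG-1-3 also has snoRNA:U3:54Ab within 250 bp. Ser had 3 of 20, with 2, 2 and 3 in the replicates. Ala had 3 of 17, with 1, 0 and 3, and 2 of these rest on the summit of rank 10115. Ile had 1 of 11, with 2, 2 and 4. Arg had 2 of 26, Glu 2 of 19, Thr 2 of 17, Val 2 of 15 and Cys 2 of 7. In the IDR list no summit was found at any of 20 Gly, 10 Asn and 8 Trp genes. So few genes per isotype cannot show a difference from the share of all genes. Replicate 2 had a summit at 2 Gly genes and 1 Trp gene, and replicates 1 and 3 had none at these isotypes. The initiator tRNA, which starts every protein, had 2 of 6 genes with a summit, and 0, 2 and 2 in the replicates. Both share the summit of rank 8263 on 2R, which lies inside iMet-CAT-1-2 and 245 bp upstream of iMet-CAT-1-1. The others, iMet-CAT-1-3, 1-4, 1-5 and 2-1, lay 4795, 1105, 1507 and 950 bp from the nearest summit. The selenocysteine gene SeC-TCA-1-1 lay 9018 bp away.

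**Figure D4:**
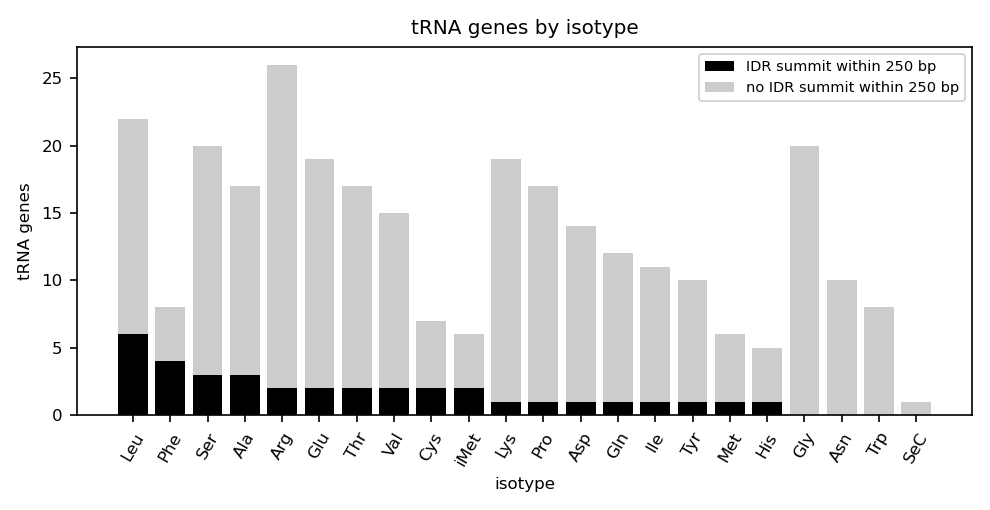
Number of tRNA genes (y axis) per isotype, with an IDR summit within 250 bp in black and without one in grey. Leu has 6 of 22 and Phe 4 of 8, and Gly, Asn, Trp and SeC have none.

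Copies with the same sequence were compared next. The 290 genes include 43 families of identical copies with 238 genes. In 17 families at least 1 copy had a summit, and in all 17 at least 1 copy had none. Only 10.9% of such copies had a summit, so a summit at every copy of a family was unlikely from the start. These counts therefore do not show whether copies behave alike. The 8 identical Phe-GAA genes, for example, had 4 copies with a summit. Among genes with a unique sequence 10 of 52 (19.2%) had a summit, against 26 of 238 copies (10.9%). Reads that fall wholly inside identical copies cannot be placed, so the uniqueness of 50-base stretches was measured. A median of 77.9% of the stretches touching a gene were unique for genes with a summit, against 77.0% for the others. The median was 97.4% for genes with a unique sequence and 76.0% for the copies, so those groups were not alike in it. In the flanks the median was 100%. Of 10 genes with under 50% of these stretches unique, none had a summit, beside 12.4% of all 290 genes. So few genes cannot show a difference from that share. How mapping bears on the counts was not tested.

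The letters of the internal promoter were then counted in the genes, on their own strand. The A box core TNGCNNAG was present in 26 of 36 genes with a summit (72.2%), against 118 of 254 without one (46.5%), and in 5.79% of all windows of 73 bp. Genes of one isotype share these letters, and identical copies each count. For the B box the outcome depended on the letters chosen. GTTCGANNC was present in 20 of 36 genes with a summit (55.6%), against 140 of 254 (55.1%). GTTCNANNC, which was widened after those counts were seen because the first form missed genes such as Tyr-GTA-1-8, was present in 31 of 36 (86.1%), against 240 of 254 (94.5%). The difference is +0.44 points with the first form and −8.38 with the second. A run of TTTT within 30 bp downstream was present at 32 of 36 (88.9%), against 245 of 254 (96.5%).

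Motifs were searched on both strands within 100 bp of the summits. Near tRNA genes, 0 of 27 windows held TGATNGAT, the letters of an Extradenticle and Labial site, against 5.08% of all IDR summits and 3.07% of all positions. The homeodomain core TAATTA was in 5 of 27, against 14.7% of all IDR summits and 12.5% of all positions. GAGAG, the core of GAGA factor sites, was in 5 of 27, against 25.6% of IDR summits and 21.5% of positions. TATCGATA, the DNA replication-related element, was in 1 of 27, against 1.98% of IDR summits and 0.562% of positions. With only 27 windows, these counts, the 0 for TGATNGAT among them, cannot show a difference from those shares. A missing match says only that these letters are not in the window.

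Other small RNA genes were read by the same rule. The tRNA genes had 36 of 290 with a summit, against 2 of 110 other genes grouped here as transcribed by RNA polymerase III (1.82%). Of those 110, 100 are 5S rRNA genes, a repeated array in which none had a summit. Whether reads can be placed in that array was not tested, so the 1.82% is not a like comparison. Without them 2 of 10 genes had a summit (20.0%), with a replicate mean of 26.7% ± 5.77 (SD, n = 3), against 12.4% of tRNA genes. The 10 genes are too few for a comparison of shares. Those 2 with a summit were snRNA:7SKa, at rank 1455, and snRNA:U6:96Ac, at rank 4134. Among snRNA genes transcribed by RNA polymerase II, 3 of 25 had a summit, and among snoRNA genes 15 of 269 (5.58%), with a replicate mean of 5.20% ± 1.29 (SD, n = 3).

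The protein-coding genes of tRNA synthesis and maturation were examined at their start sites. The list held 55 symbols, of which 7 matched no gene and others were older names of a gene already listed. Of the 45 matched genes, 11 had an IDR summit within 500 bp of a start (24.4%), and 13, 10 and 12 in the replicates. Over all protein-coding genes the share was 25.5%, so the share for this list lay near that of all genes. The strongest were at Bdp1 (rank 355) and Brf (rank 407), which encode subunits of TFIIIB, and at Trmt61 (rank 505), which encodes a tRNA methyltransferase subunit. All of these were found in 3 of 3 replicates.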

How the data were processed

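Anti-GFP ChIP-seq was measured in 3 biological replicates of Labial-GFP embryos, with chromatin sonicated to 200 to 800 bp per the labels. The authors deposited ranked peak lists in dm6, 1 for each replicate, 1 for the pooled reads and 1 after IDR, with a signal and a −log10 q-value per peak. The deposited −log10 q-value reached its highest value for 7046 IDR peaks, so the authors' signal was used for ranks. Which aligner and peak caller were run, and at what IDR threshold, is not given in the sources used here. Replicate lists had no interval of equal signal in common, and the labels do not say how the embryos were pooled, so p-values measure the spread between these samples only. Coordinates are 1-based, and all 290 tRNA genes had the same coordinates in RefSeq Release 6.

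Genes came from Ensembl release 115. Summits were matched to genes within 250 bp, and replicates within 100 bp of a summit. Placement shares were computed exactly, per arm and gene length. The only tests were exact two-sided sign-flip permutation tests over 3 replicates. Python 3.11.15, numpy 2.4.6, pandas 2.3.3, scipy 1.17.1 and matplotlib 3.10.9 were used, and bedtools 2.31.1 also counted 36 genes. The script was tested on simulated summits. The members, lists and motifs were chosen with earlier results of these data known. Genes were named by rule: the 12 of highest signal away from start sites, the 6 near one, the top gene per isotype, all initiator and selenocysteine genes, the 3 largest clusters and the 3 with most genes with a summit, with ties. Alternatives changed the distance, the list, the placement, the cluster gap and each replicate. The placement away from start sites, the count without genes near a start site, the summits without each replicate and the wider B box were added after the data were seen.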

Additional observations from a re-analysis of the deposited data

How the results depend on the processing

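No paired analysis was possible because all samples form 1 group. The 36 tRNA genes became 9 within 100 bp, 55 within 500 bp, 13 in the stronger 50% of the IDR list, 99 in the whole pooled list and 22 by overlap of the peak with the gene. Requiring both remaining replicates gave 18 to 24, a stricter rule than the IDR list. All 36 were unique with 100 bp flanks, and 30 were left without genes near a start site. The ratio to placement of 2.99 became 1.51 within 100 bp, 2.10 in the stronger 50%, 2.20 by local placement and 3.88 away from start sites, and 1.99 to 2.61 without 1 replicate. The 27 summits became 8 within 100 bp, 11 in the stronger 50% and 87 in the pooled list, and 17 to 20 without 1 replicate. The 19 genes whose summit was matched in all 3 replicates became 12 with matches within 50 bp and 33 in whole lists. The difference from start sites turned to +4.37 points in the pooled list, and that between genes near and away from start sites to −3.50 with summits within 100 bp. The B box difference of +0.44 points turned to −8.38 with the wider letters. The clustered minus isolated difference kept its direction, from 1.03 to 8.83 points by gene. By locus it was 15.1 points, but a cluster spans more bases than 1 gene, so that value is not a like comparison. The causes were not tested. Few summits lie in each bin, and the depth is unknown.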
